A study of Mus musculus with 4 samples.

Results

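Glycam1 and 7 other genes of lymph node vessels, lymphocyte homing and B cell follicles were followed across the 4 arrays of a study of the mouse mammary gland. The genes were chosen by name, with the level of 1 array, wild-type replicate 1, already known, so its height in these genes is described here and is not tested. Each gene is represented by a probe set that the platform annotation gives to that symbol alone, and dim genes were kept. By this rule 7 of the 8 genes were found among 22180 genes with a name. The exception was Ccl19, because each of the 13 probe sets listing it carries at least 5 symbols.

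The samples were mammary epithelial cells from inguinal glands of FVB/NJ mice aged 4 weeks. There were 2 samples of each genotype, with 1 Affymetrix array each. MMTV-Cre+ mice carry Cre under the control of mouse mammary tumour virus sequences, and wild-type littermates lack it. The labels describe the gland tissue as free of lymph node, minced, digested with collagenase and centrifuged to take away stroma, and labelled cDNA was made from 50 ng of RNA. The labels call the samples biological replicates without saying whether a sample is 1 mouse or a pool. Over the named genes wild-type replicate 1 correlated at 0.986 to 0.988 with the other arrays, which correlated at 0.989 to 0.991 among themselves. Over all probe sets these ranges overlapped, at 0.976 to 0.980 and 0.980 to 0.983. All levels are log2 expression, and 2.84, the median over all probe sets and arrays, is used below as the limit under which a level is called dim.

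Lymphocytes enter lymph nodes through high endothelial venules, vessels whose lining carries sulphated sugars on mucin-like proteins. L-selectin on the lymphocyte binds these sugars, and chemokines made in the node then guide T cells and B cells to their own zones. Lymphotoxin, made by lymphocytes, keeps the stroma and vessels of the node in this state. Glycam1 encodes one of the mucin-like ligands of L-selectin and is also known as a milk protein gene of the lactating gland, so it belongs to both tissues that meet in the mammary fat pad.

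Promoters are shown for Glycam1 and Cxcl13, the genes of the list that differed most between arrays, and for Madcam1 and Ltb, which of the members in the table held a match to the NF-kB consensus, the site bound by the transcription factors that act downstream of lymphotoxin. The sequences are from RefSeq, build GRCm38.p6, which held 7 of the 8 genes (not Ccr7), and cover 250 bases before to 50 after the start. They lie at chr15:103565032-103565331 on the minus strand for Glycam1, chr5:95956689-95956988 on the plus strand for Cxcl13, chr10:79664309-79664608 on the plus strand for Madcam1 and chr17:35194257-35194556 on the plus strand for Ltb. Capitals mark matches to the NF-kB consensus and to TATAAA, each searched on both strands.
Glycam1: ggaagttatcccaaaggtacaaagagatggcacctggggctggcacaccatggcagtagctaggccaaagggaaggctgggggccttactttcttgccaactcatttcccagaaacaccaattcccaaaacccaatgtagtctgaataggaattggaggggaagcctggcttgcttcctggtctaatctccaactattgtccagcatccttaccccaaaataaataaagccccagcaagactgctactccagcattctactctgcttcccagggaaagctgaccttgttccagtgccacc
Cxcl13: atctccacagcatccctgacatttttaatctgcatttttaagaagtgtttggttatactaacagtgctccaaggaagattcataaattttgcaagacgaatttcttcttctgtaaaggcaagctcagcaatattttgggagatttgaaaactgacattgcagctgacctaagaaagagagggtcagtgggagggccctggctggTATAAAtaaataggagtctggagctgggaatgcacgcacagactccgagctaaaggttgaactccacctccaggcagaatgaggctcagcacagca
Madcam1: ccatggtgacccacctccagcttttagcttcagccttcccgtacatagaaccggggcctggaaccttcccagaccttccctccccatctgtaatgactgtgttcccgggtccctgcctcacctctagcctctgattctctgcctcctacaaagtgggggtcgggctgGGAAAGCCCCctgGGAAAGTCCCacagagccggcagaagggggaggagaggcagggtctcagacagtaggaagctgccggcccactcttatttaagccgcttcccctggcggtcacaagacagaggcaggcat
Ltb: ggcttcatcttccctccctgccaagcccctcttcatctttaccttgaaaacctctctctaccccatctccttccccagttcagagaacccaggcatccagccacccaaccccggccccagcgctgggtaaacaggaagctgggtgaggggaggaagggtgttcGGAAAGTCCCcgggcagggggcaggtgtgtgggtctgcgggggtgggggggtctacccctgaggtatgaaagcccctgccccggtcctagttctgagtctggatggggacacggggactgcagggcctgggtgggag

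Glycam1 stood far apart in 1 wild-type sample, where its difference from the other arrays exceeded that of any other named gene. Its level was 10.19 and 2.87 in wild-type replicates 1 and 2, and 2.72 and 2.75 in MMTV-Cre. Both wild-type samples thus lay above both MMTV-Cre samples, but the 3 lower arrays were within 0.15 log2 units of each other, around the limit for dim levels, and only wild-type replicate 1 was high. Wild-type replicate 1 exceeded the highest of the others by 7.32 log2 units, which placed Glycam1 at rank 1 of the 22180 genes. With the other arrays at the dim limit, the size of this gap may be understated. Whether more cells of a type or more RNA per cell lie behind a level in such mixed samples cannot be told apart.

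Cxcl13, the chemokine that draws B cells into follicles, was the other gene with a wide separation. Its levels were 6.19 and 3.13 in wild-type replicates 1 and 2, and 2.65 and 3.60 in MMTV-Cre, so the groups overlapped. The 3 lower arrays differed among themselves by 0.95 log2 units, more than the 95th percentile of that range over all named genes (0.67), and wild-type replicate 1 was 2.59 above the highest of them. Ccr7, the receptor by which T cells and dendritic cells follow Ccl19 and Ccl21, had levels of 5.90 and 4.52 in wild-type replicates 1 and 2 and of 4.12 and 4.71 in MMTV-Cre, again with overlap. Its excess over the highest other array was 1.20, on a range of 0.58 among the other 3. In Cxcl13 and Ccr7 the order of the arrays was the same, with MMTV-Cre replicate 1 lowest.

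**Figure D1:**
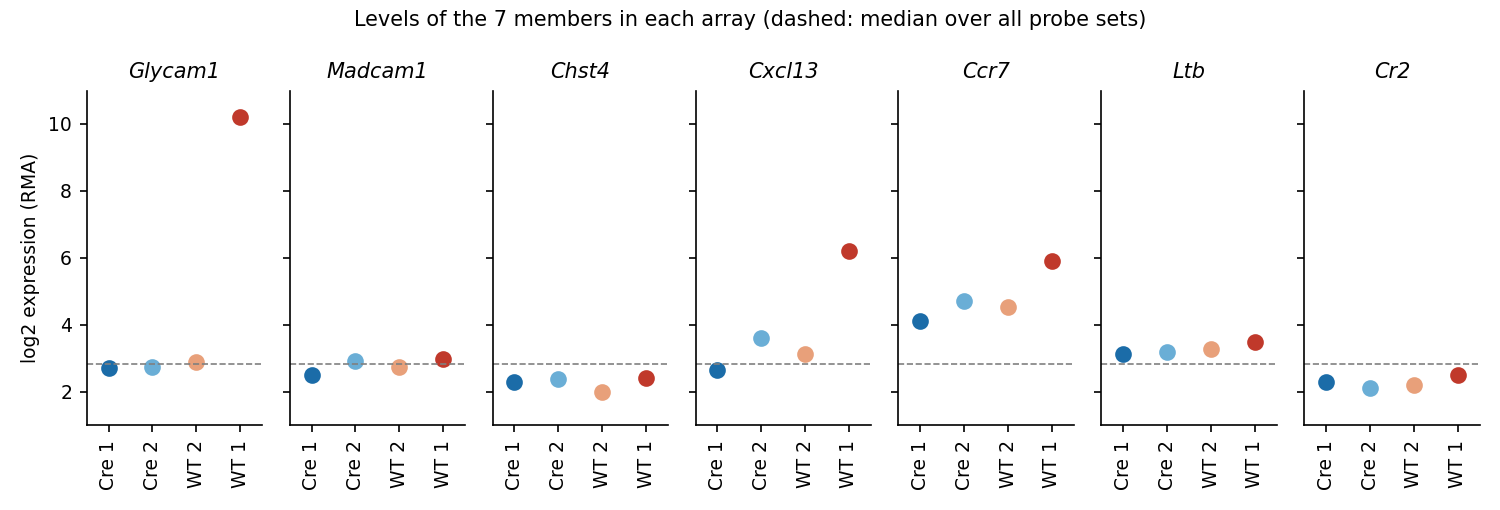
Log2 expression of the 7 genes in each array, with MMTV-Cre (Cre) in blue and wild-type (WT) in orange and red; the dashed line is the median over all probe sets. Glycam1 (10.19), Cxcl13 (6.19) and Ccr7 (5.90) stand clear of the other arrays in wild-type replicate 1, while Madcam1, Chst4, Ltb and Cr2 do not.

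The other vessel genes lay close together in all 4 arrays. Madcam1, which encodes an adhesion molecule of mucosal and some nodal venules that binds the integrin of gut-homing lymphocytes, stood at 2.98 and 2.73 in wild-type and at 2.49 and 2.91 in MMTV-Cre. Its excess in wild-type replicate 1 was 0.06, against a range of 0.42 among the other arrays. Chst4 encodes a sulphotransferase of the L-selectin ligand on high endothelial venules. It was dim in all 4 arrays, at 2.41 and 1.99 in wild-type and 2.30 and 2.38 in MMTV-Cre, and its excess of 0.04 lay within the range of 0.39 among the others. For both genes, wild-type replicate 1 and MMTV-Cre replicate 2 therefore did not differ beyond the spread of the arrays.

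Ltb and Cr2 were also highest in wild-type replicate 1, by small amounts. Ltb, a subunit of the lymphotoxin complex, stood at 3.50 and 3.29 in wild-type and at 3.13 and 3.18 in MMTV-Cre. As in Glycam1, both wild-type samples lay above both MMTV-Cre samples, here by little. Cr2, a complement receptor of B cells and follicular dendritic cells, was dim throughout, at 2.50 and 2.21 in wild-type and 2.29 and 2.12 in MMTV-Cre. The excess was 0.21 in each of these 2 genes, against ranges of 0.16 and 0.17 among the other 3 arrays.

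In all, 3 of the 7 genes had an excess of 1 log2 unit or more in wild-type replicate 1, as did 0.424% of the 22180 named genes. Nearest to that limit were Ccr7 on the inside, at 1.20, and Cr2 on the outside, at 0.21. All 7 were highest in that array, which was the case for 23.3% of all named genes. Since the genes were picked with this array in view, these shares are given as background only. The median excess of the 7 was 0.21, and that of all named genes was −0.14. Not one of the 7 was highest in any other array. The largest excess of any gene was 1.57 in MMTV-Cre replicate 1, 1.21 in MMTV-Cre replicate 2 and 1.45 in wild-type replicate 2, and at least 1 log2 unit was reached by 2, 3 and 2 genes there, against 94 in wild-type replicate 1. Only 3 of the 7 genes, Cxcl13, Ccr7 and Ltb, had a mean at or above the limit for dim levels in the other 3 arrays, and Glycam1 reached it through wild-type replicate 1 alone.

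**Figure D2:**
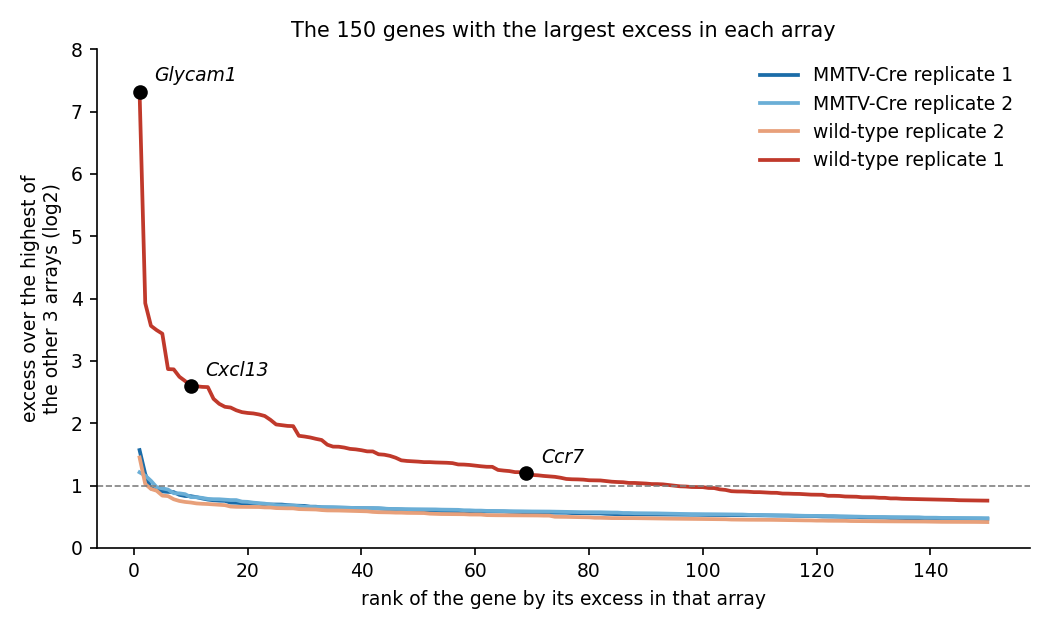
The 150 named genes with the largest excess in each array, ranked, where excess is the level in that array minus the highest of the other 3 (log2); the dashed line marks 1. The curve of wild-type replicate 1 starts at 7.32 with Glycam1 and holds Cxcl13 at rank 10 and Ccr7 at rank 69, while the curves of the other arrays start at 1.57 or less.

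Madcam1 held 2 matches to the NF-kB consensus, beginning 83 and 70 bases before the start, and Ltb held 1, beginning 87 bases before it. Such a match was present in 8.46% of 32851 promoters of this length. The 2 genes with the match had excesses of 0.06 and 0.21 in wild-type replicate 1. The other members with a sequence held no match in this window. Their excesses were 7.32 for Glycam1, 2.59 for Cxcl13, 0.21 for Cr2 and 0.04 for Chst4, while Ccl19 had no probe set of its own. A link between match and excess was not tested. Cxcl13 held TATAAA 46 bases before the start, as did 13.6% of promoters at any position in the window. The matches did not overlap. These are matches of letters, and binding was not measured.

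Between the genotypes, the comparison that the labels set up, limma called 0 of the 7 genes and 0% of all 22180 genes. At an unadjusted p under 0.05 the counts were 0 of the 7 and 1012 of all genes. With all 4 arrays the differences contain wild-type replicate 1 and are given as description. Wild-type subtracted from MMTV-Cre gave a log2 difference of −3.80 for Glycam1 (95% interval −9.20 to 1.60), of −1.54 for Cxcl13 (−3.92 to 0.84) and of −0.80 for Ccr7 (−1.94 to 0.35). For Ltb it was −0.24 (−0.56 to 0.09), and for Madcam1, Cr2 and Chst4 it was −0.15, −0.15 and 0.13. Without wild-type replicate 2, Glycam1 differed by −7.46 (−7.88 to −7.04) and was 1 of 7 genes called in all, on the single wild-type array that chose it.

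Without wild-type replicate 1, the array whose level chose the genes, the same fit compared 2 MMTV-Cre samples with 1 wild-type sample. Again none of the 7 and 0% of all genes passed, with 0 of the 7 and 743 of all genes at an unadjusted p under 0.05. Glycam1 then averaged 2.73 ± 0.02 in MMTV-Cre (SD, n = 2) against 2.87 in the remaining wild-type sample, a difference of −0.14 (−0.56 to 0.28). Cxcl13 averaged 3.12 ± 0.67 (SD, n = 2) against 3.13, a difference of −0.01 (−1.02 to 1.00), and Ccr7 differed by −0.10 (−0.81 to 0.60). The differences of Ltb, Madcam1 and Cr2 were −0.13, −0.03 and −0.01. Chst4 had the highest, at 0.34 (−0.08 to 0.77). All 7 intervals included 0, with adjusted p = 0.999 for each. An interval that includes 0 does not show that the groups are alike, and the lone wild-type array is assumed to vary like the MMTV-Cre arrays.

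**Figure D3:**
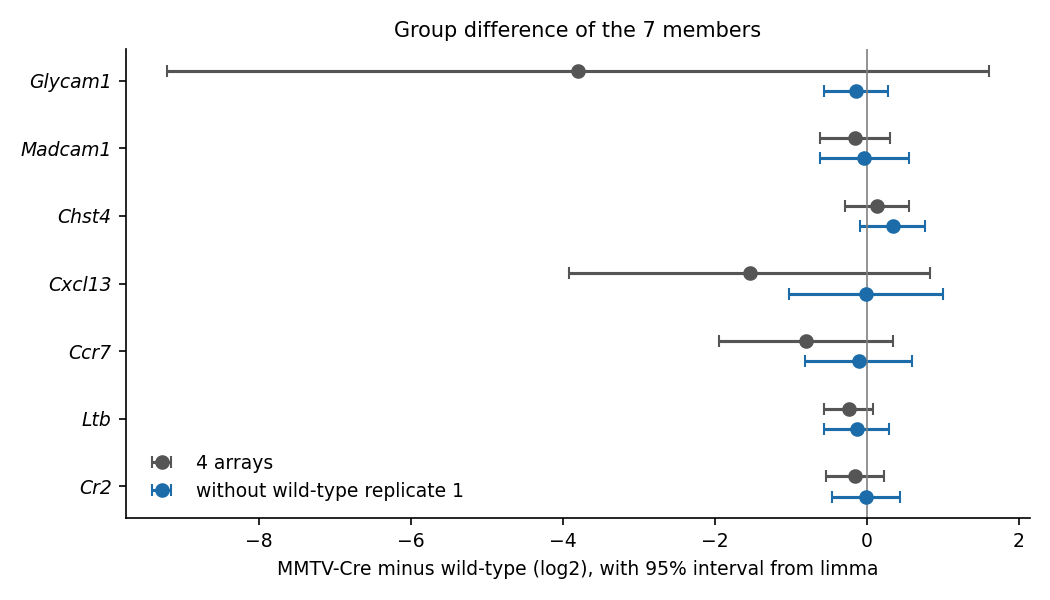
Log2 difference, MMTV-Cre minus wild-type, of the 7 genes with its 95% interval from limma, for all 4 arrays (grey) and without wild-type replicate 1 (blue). Glycam1 moves from −3.80 to −0.14 and Cxcl13 from −1.54 to −0.01 when that array is left out, and all the intervals include 0.

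Further genes of these pathways came from lists written with earlier results of these data known. Among 15 measured genes of high endothelial venules, 0 reached an excess of 1 in wild-type replicate 1, beside 0.424% of all genes. In that array 3 of the 15 were highest, beside 23.3% of all genes. The largest excess was that of Chst2, a second sulphotransferase of the L-selectin ligand, at 0.51 (3.67 against 2.93 to 3.15). The ligand's sugar-building genes Gcnt1 and Fut7, a fucosyltransferase, had excesses of 0.03 and −0.00. Endothelial genes of the list with high levels had their highest value elsewhere. Selp, which encodes P-selectin, stood at 8.64 in wild-type replicate 1 against 8.53 to 8.91, and Emcn, a sialomucin of venous and capillary endothelium, at 7.12 against 7.25 to 7.79.

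Of 15 measured receptors and ligands of homing, 10 were highest in wild-type replicate 1 (66.7%, beside 23.3% of all genes). An excess of 1 was reached by 1 of them (6.67%, beside 0.424%). That gene was Selplg, the selectin ligand of leucocytes, at 4.38 against 2.52 to 2.75, an excess of 1.62. S1pr1, the receptor by which lymphocytes leave the node, stood at 6.08 against 4.93 to 5.36, an excess of 0.72. Itgal, the integrin chain that holds lymphocytes to the vessel wall, and Gpr183, a receptor that positions B cells, had excesses of 0.65 and 0.63. The integrins' vascular partners Icam1 and Vcam1 had excesses of −0.14 and −0.10. Other receptors of lymphocytes on this list were looked up after the values were seen. Itgb7, Itga4, Ccr6 and Itgb2 had excesses of 0.60, 0.41, 0.33 and 0.21. Cxcr4, Ccr9 and Cxcr5 had excesses of 0.04, 0.03 and −0.13. Ccr6 and Cxcr5 were dim in every array. The median of this list was 0.21, beside −0.14 over all genes.

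Chemokines of the T cell zone could be followed only through probe sets with several symbols. All 9 probe sets listing Ccl21 copies carry 8 symbols, and their 5 distinct sets of values had excesses of 2.07 to 2.54 in wild-type replicate 1. The brightest stood at 7.28 there against 4.71 to 4.81 in the others. The 13 probe sets listing Ccl19 gave 9 distinct sets of values, all highest in wild-type replicate 1, with excesses of 0.35 to 1.21 and 1 of them at 1 or above. The brightest stood at 5.01 against 4.14 to 4.43. Neither family can be assigned to 1 gene, because its copies and predicted genes share the probe sets, and these values were added after the data were seen.

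The lymphotoxin and tumour necrosis factor pathway gave 4 of 14 genes highest in wild-type replicate 1, 28.6% beside 23.3% of all genes. It held 0 at an excess of 1, beside 0.424%, and had a median of −0.17. Tnfrsf14, a receptor of this family on lymphocytes, had the largest excess at 0.82 (3.85 against 2.91 to 3.03). Tnfrsf13c and Tnfsf13b, the receptor and ligand of B cell survival, had excesses of 0.37 and 0.34. For Tnfrsf13c the other 3 arrays ranged over 0.64, more than its excess. Tnfsf13b was dim in every array, at 2.34 against 1.72 to 2.00. Tnf and the NF-kB subunit gene Nfkb2 had excesses of −0.49 and −0.19. Genes of follicles and of the stromal network gave 7 of 14 highest (50.0%, beside 23.3%) and 0 at an excess of 1 (beside 0.424%), a count that became 4 at a threshold of 0.5. Ch25h, an enzyme that makes the precursor of a Gpr183 ligand, stood at 3.81 against 2.81 to 2.98, and Fcer2a, a marker of follicular B cells, at 2.31 against 1.43 to 1.56, which is dim in every array.

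**Figure D4:**
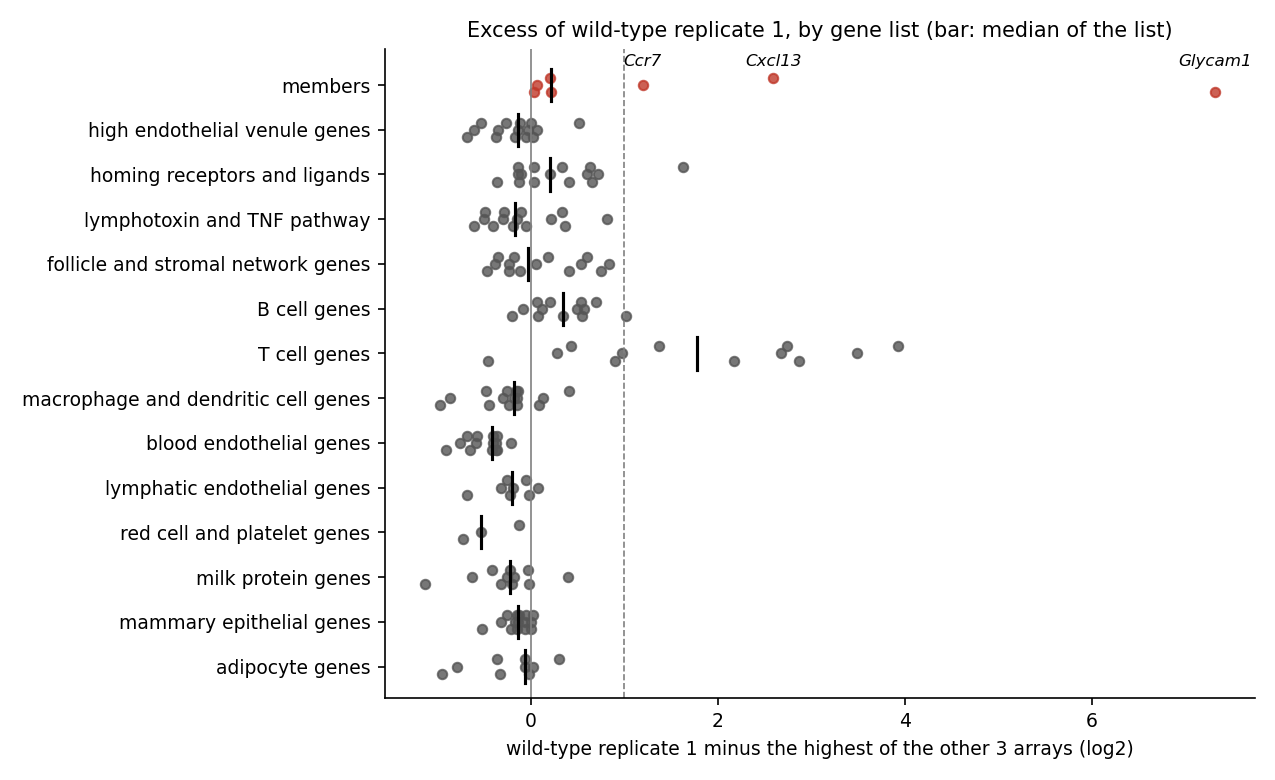
Excess of wild-type replicate 1 over the highest of the other 3 arrays (log2), a point for each measured gene of each list, with the list's median as a bar and a dashed line at 1. The T cell list has a median of 1.77, while no gene of the blood endothelial list lies above 0.

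Markers of T cells and, by less, those of the B cell list were also higher in wild-type replicate 1. Their part in the level of Glycam1 was not tested. In the T cell list 11 of 12 genes were highest in that array (91.7%, beside 23.3% of all genes) and 7 had an excess of at least 1 (58.3%, beside 0.424%), with a median of 1.77. The list's mean level was 4.84 there against 2.79 to 2.87 in the others, and the T cell receptor complex gene Cd3e exceeded the others (3.08 to 3.26) by 2.74. In the B cell list 11 of 13 were highest (84.6%), with a median excess of 0.34 and a mean level of 3.02 against 2.50 to 2.61. Only 4 of the 13 had a mean at or above the dim limit in the other arrays. Only Cd79a, part of the B cell receptor, reached an excess of 1, at 1.02 (3.86 against 2.24 to 2.83), and the list's count became 0 after quantile normalization or median centring. Bank1, a scaffold protein gene of B cell signalling, and Pou2af1, a B cell coactivator gene, had excesses of 0.70 and 0.57, on levels of 2.28 to 2.44 and 2.53 to 2.60 in the other arrays. Fcmr, the IgM Fc receptor gene, had 0.55 and was dim in all 4. No immunoglobulin gene was among the measured genes of this list. Ighm and Ighg3, found below by their closeness to Glycam1 and so largely by this excess, had 3.56 and 2.87. Ighm stood at 7.36 against 3.43 to 3.80. Ptprc, the common leucocyte antigen gene, stood at 6.96 against 4.49 to 4.82.

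In the remaining cell type lists and the milk protein list, no share exceeded the 23.3% of all genes that were highest in that array. The adipocyte list and the macrophage and dendritic cell list lay near that share, and differences from it were not tested. All these lists held 0 genes at an excess of 1, beside 0.424% of all genes. At so low a share, lists of this length would be likely to hold 0 in any case. Of 14 blood endothelial genes 0 were highest, and the list's mean level was 4.62 there against 4.69 to 5.01. Pecam1 stood at 6.83 against 6.77 to 7.23, and Cdh5, the cadherin of endothelial junctions, at 7.72 against 7.83 to 8.14. Of 8 lymphatic endothelial genes 1 was highest there, and Lyve1 and Prox1 had excesses of −0.02 and −0.22. Of 15 mammary epithelial genes 1 was highest, of 15 macrophage and dendritic cell genes 3 were highest, and of 9 adipocyte genes 2 (22.2%). Of the red cell and platelet list 3 of 9 genes were measured, the platelet genes Pf4, Ppbp and Itga2b, and 0 were highest. No red cell gene was measured, so that list says nothing about red cells. Among 11 milk protein genes 1 was highest, Wap, with an excess of 0.40 on levels of 2.38 to 3.14. Csn3, the kappa-casein gene, stood at 8.59 against 8.55 to 8.61, and Csn2 was lowest in wild-type replicate 1, at 2.56 against 2.65 to 3.70. Markers of the labelled cell type, mammary epithelium, were high in all arrays, with Krt8 at 10.30 to 10.40, Epcam at 8.52 to 8.67 and Krt14 at 7.27 to 8.07.

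The genes outside the list with values most like those of Glycam1 were found by the Euclidean distance between the centred log2 values of the 4 arrays. This distance is set largely by the height of wild-type replicate 1, so it mostly repeats the order by excess. Cd3g, of the T cell receptor complex, was nearest, at 2.92, followed by the T cell receptor segment Trav9d-3 at 3.15, the immunoglobulin gene Ighm at 3.20, Cd3d at 3.20, the interleukin-7 receptor gene Il7r at 3.68 and Ighg3 at 3.73. Cxcl13 came next after these, at 3.82, and Ccr7 lay at 5.18 with 61 genes nearer. Ltb, Cr2, Madcam1 and Chst4 lay between 6.16 and 6.27, with 1644 to 3546 genes nearer. Pearson's r over the 4 arrays was 0.97 for Cxcl13, 0.95 for Ccr7, 0.92 for Ltb, 0.91 for Cr2, 0.61 for Madcam1 and 0.48 for Chst4. With 1 array far from the rest r says little, and 154 genes reached 0.99 or more.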

How the data were processed

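The values are log2 expression per probe set, deposited by the authors and made with oligo and RMA per the submitters' processing notes; no version was given. RMA brings the arrays to a common distribution, which can hide a change common to most genes. The array medians of the deposited values ran from 2.83 to 2.86. The log2 scale was read from the values. Of 41345 probe sets, 23521 carry 1 symbol in the platform annotation, 1814 several and 16010 none here. The brightest probe set of a symbol stood for the gene.

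Excess is the level of 1 array minus the highest of the other 3. The genotypes were tested by limma 3.58.1 under R 4.3.3 (lmFit, eBayes, two-sided, Benjamini-Hochberg at 0.05) with no filter on dim genes. The procedure was also run on simulated data, but its power to find a difference with so few arrays is not given here. The members and lists were chosen with earlier results of these data known. Besides the members, the text names, from each list, up to 4 genes by excess and 2 by level, 12 set genes and the 6 nearest to Glycam1. Other genes are said in their place to have been added after the values were seen. Genes named under the rule but with nothing to add are left to the counts. The number of arrays limits precision, and p-values measure the spread between these samples only.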

Additional observations from a re-analysis of the deposited data

How the results depend on the processing

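The count of 3 members at an excess of 1 or more was 3 with a threshold of 0.5, with the mean of the other arrays as reference, with a gene's probe sets averaged, after quantile normalization or median centring, without any 1 of the other arrays, and with Ccl19 added through its brightest shared probe set, an alternative chosen after seeing the data. With the threshold of 0.5 the counts of listed genes rose from 1 to 5 for homing and for B cells, from 0 to 4 for follicles, and from 0 to 1 for high endothelial venules and for lymphotoxin. At a threshold of 2 those of homing and B cells became 0. The members' count was 2 at a threshold of 2, and 2 among genes that the other arrays place at or above the dim limit. The count over all genes was 94, and became 303, 24 and 42 at those thresholds and that limit. The count of members past the limma threshold stayed at 0 with a filter on dim genes, a variance trend, robust variance, other normalizations and the replicate block (0), and lay between 0 and 1 when single arrays were left out. The 1 is Glycam1 without wild-type replicate 2, among 7 genes in all, and rests on wild-type replicate 1. The dim filter left 4 members to test, and 3 without wild-type replicate 1. Deviations of same-numbered samples correlated at −0.02 across genes, so the numbers were not taken to pair samples. Without wild-type replicate 1 the filter, variance and normalization alternatives also gave 0, and a further array could not be left out there, since no residual degrees of freedom would be left. In that fit the Cxcl13 difference turned to 0.0014 after quantile normalization and 0.0039 after median centring, and that of Cr2 to 0.0091 after centring, all close to 0. The filter took the genes at an unadjusted p under 0.05 from 1012 to 504, and from 743 to 351 without wild-type replicate 1, on fewer genes tested. Levels near the dim limit can hide differences.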

Other observations

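Probe sets that the annotation does not tie to 1 symbol also held values of this kind. Among the 1814 with several symbols, 17 (0.937%) had an excess of 1 or more in wild-type replicate 1. Of those 17, 9 are the probe sets of Ccl21 copies, which hold 5 distinct sets of values, so this share rests largely on 1 family. Among the 16010 with no symbol here 104 (0.650%) had such an excess, beside 0.424% of the named genes.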
